A study of Sus scrofa with 8 samples.

Results

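The genes described here are 10 genes of the vascular growth factor system and of blood vessel endothelium: VEGFA, FLT1, KDR, PECAM1, VWF, TEK, ENG, ANGPT2, EDN1 and HIF1A. They were chosen by name, as all probe sets whose single gene symbol in the platform annotation is one of these 10, which gave 24 of the 24123 probe sets on the array and 10 of the 6765 genes that have a probe set of their own. A probe set is a group of short probes on an Affymetrix array that together give 1 signal for 1 transcript. The samples were scraped cells of sow oviducts, taken 24 h after flow-sorted spermatozoa had been placed by laparoscopy, in 4 weaned crossbred Landrace × Large White sows with pre-ovulatory follicles. Each sow had Y-spermatozoa in 1 oviduct and X-spermatozoa in the other, so there were 4 Y-spermatozoa arrays (Y1 to Y4) and 4 X-spermatozoa arrays (X1 to X4). Equal replicate numbers are taken to mark the same sow, as the labels number the replicates but do not name the sow. All oviducts had received sorted boar spermatozoa and no oviduct without spermatozoa was analysed here. Each difference is therefore between oviducts given Y-spermatozoa and oviducts given X-spermatozoa. Differences between the oviducts or the arrays themselves cannot be told apart from those of the sperm type. No transgene or mutation was part of the design, and no drug treatment was compared. For the laparoscopy all sows were sedated with azaperone and anaesthetized with thiopental and isoflurane, and both uterine horns were cut with staples. The semen came from pooled boars, and the spermatozoa had been stained with a Hoechst dye for sorting.

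Vascular endothelial growth factor A (VEGFA) is a secreted protein that makes endothelial cells divide, migrate and become permeable, and it acts through the receptor tyrosine kinases FLT1 and KDR. Its transcription is raised by the hypoxia-inducible factors, of which HIF1A is the oxygen-regulated subunit. ANGPT2 and its receptor TEK regulate vessel stability, EDN1 encodes the vasoconstrictor endothelin, and PECAM1, VWF and ENG are made by endothelial cells. The oviduct mucosa rests on a dense network of capillaries, and a scraping can therefore hold endothelial cells beside the epithelium.

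The signals are linear array intensities. For the comparison they were quantile normalized between arrays, set to at least 1 and taken to log2, and a difference is Y-spermatozoa minus X-spermatozoa on that scale. The background level of an array was the 95th percentile of 64 reporter probe sets, which have no pig target, and lay between 8.395 and 12.485 on the Y-spermatozoa arrays and between 10.01 and 12.385 on the X-spermatozoa arrays. Median signals of all probe sets lay between 38.7 and 41.2. The background levels and medians are of deposited signals. After quantile normalization, the mean log2 value of the 27 hybridisation controls, which are added to the labelled sample, lay between 9.82 and 10.1 on the Y-spermatozoa arrays and between 9.65 and 9.82 on the X-spermatozoa arrays. Probe sets of one gene are called the brighter or the dimmer one after their mean signal, which serves as a name only, since signals of different probe sets cannot be compared as levels.

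Of the 24 vascular probe sets, 10 were above background on all 8 arrays, 7 on some arrays and 7 on none. These 10 belonged to 7 genes, namely VEGFA, PECAM1 and HIF1A with 2 probe sets each and VWF, TEK, ANGPT2 and EDN1 with 1 each. FLT1, KDR and ENG had no probe set above background on all 8 arrays. For 6 clusters of the array design (of VEGFA, FLT1, KDR, VWF, TEK and HIF1A), the vascular genes had a pair of probe sets whose names share the cluster number and differ in the letter A or S; what these letters mark is not given in the sources used here.

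The first question was whether the vascular genes differed between oviducts that held Y-spermatozoa and oviducts that held X-spermatozoa. At an unadjusted p under 0.05 in limma, 1 of the 24 probe sets was called (4.17%, FLT1, higher with Y-spermatozoa), against 3.56% of all 23999 probe sets tested. After Benjamini-Hochberg adjustment over all probe sets, limma called 0 of the 24, against 0% of all tested, and each of the 24 had an adjusted p of 1. The median log2 difference of the 24 was -0.01, and that of all probe sets tested was 0.00. No vascular probe set had groups that did not overlap, which is a description, since the share of all probe sets without overlap was not counted. Of the 10 probe sets above background on all arrays, none was called, and their log2 differences ran from -0.20 for VEGFA to 0.49 for VWF, with 95% intervals that all lay between -0.76 and 1.32. The share of vascular probe sets called is near that of the whole array.

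**Figure D1:**
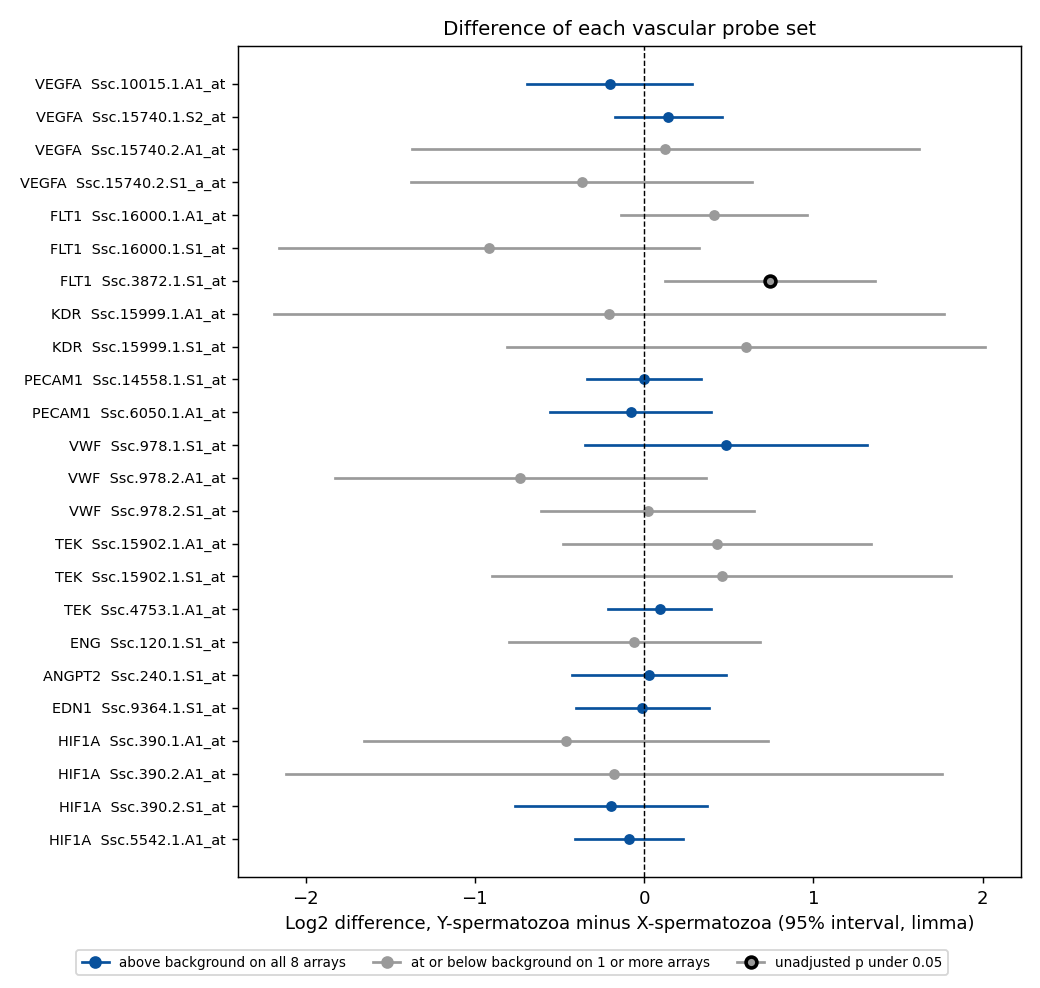
Log2 difference of each of the 24 vascular probe sets, Y-spermatozoa minus X-spermatozoa, on the horizontal axis, with limma's 95% interval as the line. Blue marks the 10 probe sets above background on all 8 arrays, whose intervals all include 0, and the black ring marks the FLT1 probe set with an unadjusted p under 0.05, which was below background on all X-spermatozoa arrays, so that its plotted difference does not measure a fold.

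VEGFA, the ligand, was measured by 2 probe sets above background on all arrays. The brighter one had signals of 529.2, 458.9, 715.7 and 486.8 on Y1 to Y4, against 656.5, 495.8, 784.5 and 549.1 on X1 to X4. The Y-spermatozoa array was the lower one in all 4 sows, while the groups overlapped widely, with larger differences between sows than between the oviducts of a sow. The means were 548 ± 116 with Y-spermatozoa and 621 ± 128 with X-spermatozoa (SD, n = 4 each), and the log2 difference was -0.20 (95% interval -0.69 to 0.28). The within-sow differences were -0.32, -0.12, -0.20 and -0.18 for sows 1 to 4. The difference was not called in limma, either without the sow in the model (unadjusted p of 0.360) or with it (0.0775).

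The dimmer VEGFA probe set had signals of 115.9, 83.4, 96.5 and 116.1 on Y1 to Y4, against 92.4, 92.8, 100.6 and 86.9 on X1 to X4. It was higher with Y-spermatozoa in sows 1 and 4 and lower in sows 2 and 3, so the 2 probe sets of the ligand did not share a direction. Its log2 difference was 0.14 (95% interval -0.17 to 0.46). Of the 2 remaining VEGFA probe sets, 1 was above background on 2 Y-spermatozoa arrays and 1 X-spermatozoa array, and the other was not above it on any.

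FLT1 and KDR, the receptors for VEGFA, were at the edge of what the arrays could measure. The brightest FLT1 probe set had signals of 12.5, 6.2, 12.4 and 8.3 on Y1 to Y4, against 4.5, 7.0, 5.5 and 7.6 on X1 to X4. Only Y1 and Y3 were above background and all X-spermatozoa arrays were below it, so no fold is given. The groups overlapped, since Y2 lay below X2 and X4. After normalization it was called higher with Y-spermatozoa (unadjusted limma p = 0.0245), and an exact two-sided permutation test over the 70 relabellings gave p = 0.0571. The normalized value of the Y-spermatozoa array was the higher one in each sow, although in sow 2 the deposited signal ran the other way, with 6.2 on Y2 and 7.0 on X2.

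This FLT1 call did not hold in every fit. Leaving out Y1, Y3, X1 or X3 gave limma p-values of 0.0649, 0.0651, 0.0649 and 0.0590, and the sow as a block gave 0.0778. With signals floored at the background level the FLT1 log2 difference was 0.12 (limma p of 0.122). Adding the hybridisation controls to the model turned the sign of FLT1 (limma p of 0.657), and those controls were higher on the Y-spermatozoa arrays in sows 1, 3 and 4; their part in the result was not tested. The other FLT1 probe sets were not above background on any array, with signals of at most 2.0 and 9.5.

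KDR transmits most of the growth signal of VEGFA in endothelial cells. Its brighter probe set had signals of 7.9, 9.7, 20.2 and 5.7 on Y1 to Y4, against 6.9, 2.3, 13.3 and 10.3 on X1 to X4. It was above background on Y2, Y3 and X3 alone, and both arrays of sow 3 were the highest of their group. The log2 difference was 0.60 (95% interval -0.81 to 2.01), an interval too wide to place KDR on either side. The KDR value rested on single arrays near background: it was 0.0703 without X2, 0.0508 without sow 2 and 1.07 without sow 4. With signals floored at background it was 0.17, and 1.37 with the hybridisation controls in the model. The dimmer KDR probe set was above background on X1 only.

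Of the list of 11 VEGF ligands and receptors, 5 were measured, of which 1 was called higher, the FLT1 probe set already described, and 0 were called lower, beside the 3.56% called over all probe sets. VEGFB, a ligand of FLT1, had signals of 256.1 to 284.4 with Y-spermatozoa and 242.6 to 276.9 with X-spermatozoa and a log2 difference of 0.04 (standard error 0.10). NRP2, a co-receptor, was not above background on any array.

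PECAM1 encodes an adhesion protein of endothelial cell junctions, also found on platelets and leukocytes. Its brighter probe set had signals of 77.7, 117.3, 71.2 and 113.5 on Y1 to Y4, against 93.7, 118.9, 95.1 and 89.7 on X1 to X4. Y2, Y4 and X2 stood above the other 5 arrays, and the Y-spermatozoa arrays held both the lowest values and 2 of the 3 highest. The means were 94.9 ± 23.8 with Y-spermatozoa and 99.35 ± 13.2 with X-spermatozoa (SD, n = 4 each), with a log2 difference of -0.08 (95% interval -0.56 to 0.40). The dimmer PECAM1 probe set had signals of 34.7 to 49.9 with Y-spermatozoa, highest on Y2, and of 38.0 to 40.8 with X-spermatozoa. Here the log2 difference was 0.00 (95% interval -0.33 to 0.33), with a sign that changed with the scaling of the arrays.

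VWF encodes von Willebrand factor, the clotting protein that endothelial cells store and release. Its brightest probe set had signals of 41.1, 89.2, 38.6 and 78.2 on Y1 to Y4, against 34.7, 67.7, 34.2 and 39.2 on X1 to X4. Y2, Y4 and X2 were the 3 high arrays here as for PECAM1, and the remaining 5 lay between 34.2 and 41.1. The Y-spermatozoa array was the higher one in 4 of 4 sows, by 0.27, 0.42, 0.23 and 1.02 on the log2 scale in sows 1 to 4. The means were 61.8 ± 25.7 with Y-spermatozoa and 43.95 ± 15.99 with X-spermatozoa (SD, n = 4 each). The log2 difference was 0.49 (standard error 0.36, 95% interval -0.35 to 1.32), and the groups overlapped.

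The VWF call, like that of FLT1, depended on the pairing. With the sow in the model as a block, the VWF log2 difference of 0.49 had a standard error of 0.17 and an unadjusted limma p of 0.0422 (adjusted p = 0.895), which made it the 1 vascular probe set called in that fit, against 5.09% of all probe sets tested. When any one sow was left out it was no longer called, with limma p-values of 0.0608 to 0.0974, while the log2 difference was 0.51 to 0.57 without sow 1, 2 or 3 and 0.31 without sow 4. A second VWF probe set was above background on 3 Y-spermatozoa and 3 X-spermatozoa arrays, with signals of 13.8, 21, 19.3 and 11.1 on Y1 to Y4, against 18.2, 20.8, 16.3 and 11.1 on X1 to X4. It was lowest on both arrays of sow 4, where the first probe set differed most between the sides, and its log2 difference was 0.02 (95% interval -0.61 to 0.65). The third was not above background on any array.

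**Figure D2:**
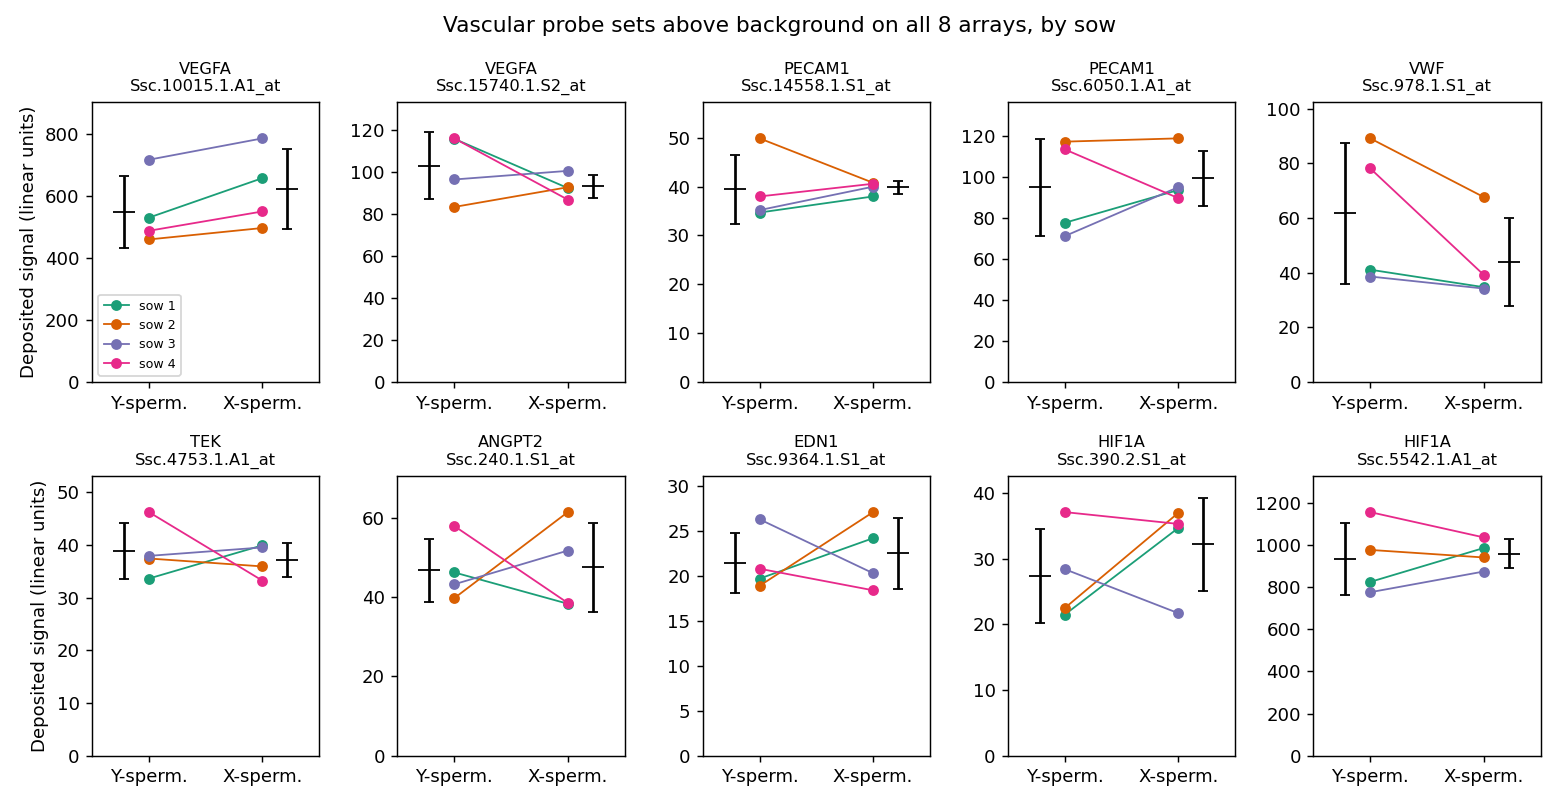
Deposited signals, in linear units from 0, of the 10 vascular probe sets above background on all 8 arrays, with Y-spermatozoa on the left and X-spermatozoa on the right of each panel. Points are arrays, lines join both arrays of a sow, and the black marks beside them give the mean and SD of 4 arrays. The brighter VEGFA probe set was lower and the VWF probe set higher with Y-spermatozoa in each of the 4 sows, and the lines of the other panels run in both directions.

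ENG encodes endoglin, a co-receptor for the TGF-beta family on endothelial cells. Its only probe set had signals of 6.8, 18.2, 9.8 and 8.7 on Y1 to Y4, against 11.9, 14.1, 10.2 and 8.8 on X1 to X4. It was above background on Y2, X1 and X2 only. The log2 difference was -0.06 (95% interval -0.80 to 0.68). Of 13 TGF-beta family partners of endoglin, 7 were measured, 1 was called higher and 0 lower, beside the 3.56% called over all probe sets. The one called was the ligand TGFB1, with signals of 33.7, 36.1, 45.4 and 54.2 on Y1 to Y4, against 26.4, 36.3, 28.6 and 28.1 on X1 to X4. TGFB1 differed by 0.53 on the log2 scale (standard error 0.18, unadjusted limma p = 0.0224, exact two-sided permutation p = 0.0571, adjusted p = 1), and the groups overlapped through X2.

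The angiopoietin system had no call. TEK, the receptor, had signals on its brightest probe set of 33.6, 37.4, 37.9 and 46.2 on Y1 to Y4, against 39.9, 35.9, 39.5 and 33.2 on X1 to X4. Its log2 difference of 0.09 (95% interval -0.21 to 0.39) had an interval that held 0. ANGPT2, the ligand that endothelial cells make and that can block TEK, had signals of 46.2, 39.7, 43.2 and 57.9 on Y1 to Y4, against 38.3, 61.4, 51.7 and 38.5 on X1 to X4. The oviducts of a sow differed in opposite directions, 2 sows each way, and the log2 difference was 0.03 (95% interval -0.43 to 0.49). The remaining TEK probe sets were not above background on any array. Of 6 angiopoietin and TIE genes, 4 were measured and 0 were called in limma at an unadjusted p under 0.05. ANGPT1, the activating ligand, had a log2 difference of 0.17 (standard error 0.22), and TIE1, the partner receptor, was not above background on any array.

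EDN1 had signals of 19.7, 18.9, 26.3 and 20.8 on Y1 to Y4, against 24.2, 27.1, 20.3 and 18.4 on X1 to X4. It was lower with Y-spermatozoa in sows 1 and 2 and higher in sows 3 and 4, with a log2 difference of -0.01 (95% interval -0.40 to 0.38). Of 7 genes of the endothelin list, 4 were measured and 0 were called in limma at an unadjusted p under 0.05. The receptor EDNRB had signals of 23.2, 24.2, 32.1 and 31.5 on Y1 to Y4, against 38.0, 31.5, 28.4 and 45.5 on X1 to X4, lower in 3 of 4 sows, with a log2 difference of -0.32 (standard error 0.19). The other receptor, EDNRA, had a log2 difference of -0.22 (standard error 0.23). ECE1, which cuts the endothelin precursor, was above background on 4 arrays and had a log2 difference of -1.04 (standard error 0.53).

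HIF1A, the transcription factor subunit that is broken down when oxygen is present, is controlled largely at the protein level, which arrays do not measure. Its brightest probe set had signals of 824.5, 976.4, 775.6 and 1155.8 on Y1 to Y4, against 985.5, 940.6, 873.9 and 1035.8 on X1 to X4. The Y-spermatozoa arrays held both the lowest value, on Y3, and the highest, on Y4, and the log2 difference was -0.09 (95% interval -0.41 to 0.23). The other HIF1A probe set above background on all arrays had signals of 21.5, 22.5, 28.4 and 37.1 on Y1 to Y4, against 34.7, 37.0, 21.7 and 35.3 on X1 to X4. It was lower in sows 1 and 2 and higher in sows 3 and 4, with a log2 difference of -0.19 (95% interval -0.76 to 0.37). Of the 2 remaining HIF1A probe sets, 1 was above background on X1 only and the other on no array.

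The study names HIF1A among the transcripts it reports as altered between the sperm types, on these same 8 arrays. The values that follow are therefore no separate evidence for that report. A further probe set is listed as HIF1A in the annotation of the study but has no symbol in the platform annotation, so it was not counted among the 24. Its signals were 12.7, 9.1, 10.4 and 8.2 on Y1 to Y4, against 21.6, 12.2, 14.1 and 10.7 on X1 to X4, and it was above background on 3 arrays of each group. Each Y-spermatozoa array was below the other array of its sow. The log2 difference was -0.43 (standard error 0.24), with an unadjusted limma p of 0.122. It was 0.0175 (adjusted p = 0.895) when the sow was a block, a fit that called 5.09% of all probe sets. None of the 4 probe sets annotated as HIF1A was lower in all 4 sows, and no annotation used here settles which of these probe sets best measures the transcript.

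Among 10 genes for HIF subunits and their regulators, 6 were measured and 0 were called in limma at an unadjusted p under 0.05. EGLN1 and EGLN2, the prolyl hydroxylases that mark HIF subunits for breakdown, differed by 0.13 and 0.18 on the log2 scale (standard errors of 0.11 and 0.15), and ARNT2, a dimer partner, by 0.27 (standard error 0.42). Of 18 HIF target genes, 10 were measured, 1 was called higher and 0 lower, beside the 3.56% called over all probe sets. Their median log2 difference was 0.15 (0.18 without VEGFA), beside 0.00 over all probe sets. The one called was HMOX1, which breaks down heme, with signals of 19.9, 36.5, 32.7 and 31.2 on Y1 to Y4, against 11, 6.8, 6.3 and 24.9 on X1 to X4. HMOX1 was above background on all 4 Y-spermatozoa arrays and on X1 and X4, the groups overlapped through X4, and the log2 difference was 1.56 (standard error 0.46, unadjusted limma p = 0.00959, exact two-sided permutation p = 0.0571, adjusted p = 1).

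The glycolytic enzymes of the HIF target list were not called. PGK1 had signals of 583.8, 594.1, 601.5 and 727.5 on Y1 to Y4, against 516.7, 488.5, 544.5 and 543.3 on X1 to X4, with a log2 difference of 0.24 (standard error 0.11, unadjusted limma p of 0.0685). Its groups did not overlap, and the exact two-sided permutation p of 0.0286, the smallest that 4 arrays against 4 allow, only restates this. The share of all probe sets whose groups do not overlap was not counted, so the PGK1 values are a description. ENO1 had signals of 579.3, 518.8, 587.5 and 633.8 on Y1 to Y4, against 518.7, 462.9, 562.5 and 404.9 on X1 to X4, with a log2 difference of 0.24 (standard error 0.14). LDHA had a log2 difference of 0.18 (standard error 0.16). Each of these 3 enzymes was higher on the Y-spermatozoa side of every sow, whereas the VEGFA probe set of this list was lower on it. For LDHA and ENO1 the log2 difference was only 0.02 and 0.01 in sow 3, and it was largest in sow 4, with 0.53 and 0.63. Over the 24 vascular probe sets, 3 (12.5%) ran the same way in all 4 sows, namely the brightest FLT1 (mostly below background) and VWF probe sets higher and the brighter VEGFA probe set lower, against 13.2% of all probe sets tested.

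The second question was how far the vascular genes differed from sow to sow with the sperm type held equal, which the paired design allows to be tested. At an unadjusted p under 0.05 in limma's F-test of the sow terms, 4 of the 24 probe sets were called (16.7%), against 14.2% of all probe sets tested, and after adjustment 0 of the 24, against 0% of all tested. The 4 were the brighter VEGFA probe set (unadjusted p of 0.0150, adjusted p = 0.271), the brightest VWF probe set (0.0224, adjusted p = 0.296), the second VWF probe set (0.0300, adjusted p = 0.314) and a TEK probe set that was below background on all arrays (0.0235). When the 11999 brighter probe sets were tested alone, the brighter VEGFA probe set had an adjusted p of 0.0474 and the brightest VWF probe set of 0.0362, so that 2 of the 7 vascular probe sets in that test passed the adjusted threshold, against 7.23% of the brighter probe sets.

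VEGFA was highest in sow 3, with a mean signal of 750.1 over both oviducts, followed by 593 in sow 1, 518 in sow 4 and 477 in sow 2. The largest difference between sow means was 0.69 on the log2 scale and the largest difference between the oviducts of one sow was 0.32. For the brightest VWF probe set the order was another one, with mean signals of 78.45 in sow 2, 58.7 in sow 4, 37.9 in sow 1 and 36.4 in sow 3. Its sow means spanned 1.13 on the log2 scale, but its oviducts differed by up to 1.02 within a sow, in sow 4. The brighter PECAM1 probe set had the same order as VWF, with 118 in sow 2, 102 in sow 4, 85.7 in sow 1 and 83.15 in sow 3, and was not called between sows (adjusted p = 0.499).

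The sow-to-sow differences of VEGFA were set beside those of the HIF list. Of its 10 measured genes, 4 were called between sows at an unadjusted p, beside the 14.2% called over all probe sets, namely VEGFA, SLC2A1, CA9 and ANKRD37; as these names follow from their values, they are a description. The glucose transporter SLC2A1 had its highest sow mean in sow 3 (256) and lay between 175 and 201 in the others (adjusted p = 0.311). ANKRD37 had mean signals of 175, 112, 210 and 97.15 in sows 1 to 4 (adjusted p = 0.168), and ARNT2, which is in the list of HIF subunits, had 115, 48.7, 118 and 64.5 (adjusted p = 0.214). ANKRD37 and ARNT2 were thus high in sows 1 and 3 and low in sows 2 and 4, as VEGFA was, while the carbonic anhydrase CA9 was high in sows 1 and 4 (23.6 and 24.0, against 17.45 and 18.15 in sows 2 and 3). The brightest HIF1A probe set was not called between sows (adjusted p = 0.586). Whether the sows differed in oxygen supply or in cell makeup was not tested.

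**Figure D3:**
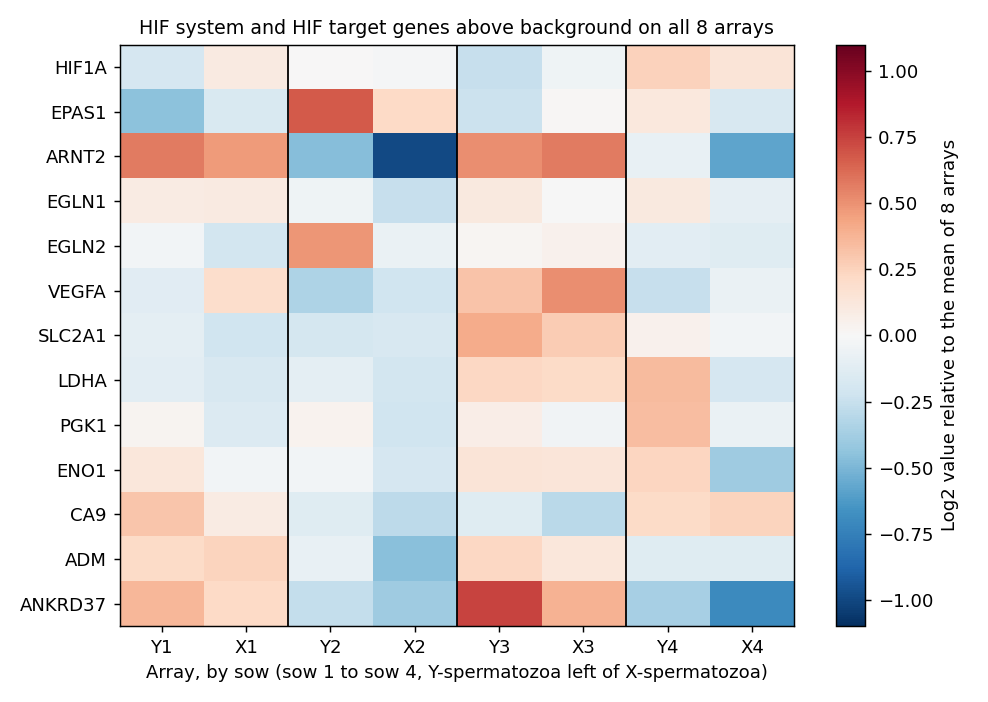
Log2 values of the HIF subunits, regulators and target genes above background on all 8 arrays, relative to the mean of the 8 arrays (red higher, blue lower), with arrays ordered by sow and Y-spermatozoa left of X-spermatozoa within each sow. VEGFA, ARNT2 and ANKRD37 were higher in sows 1 and 3 than in sows 2 and 4 on the mean of both oviducts, and HIF1A did not follow that order.

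The endothelial members were then read beside markers of the same and of other cell types. Of 40 endothelial markers, 27 were measured, of which 1 was called higher (FLT1) and 0 lower, beside the 3.56% called over all probe sets. Their median log2 difference was 0.07. Without the members, 21 were measured, limma called 0 at an unadjusted p under 0.05, and the median was 0.05. CDH5, the junction cadherin that defines endothelium, had signals of 55.4, 165.8, 121.4 and 101.7 on Y1 to Y4, against 75.6, 131.3, 83.2 and 70.8 on X1 to X4, and was above background on every array. The markers ran in both directions. ICAM2, CLDN5 and LYVE1, which after FLT1 had the smallest p-values of the list, had log2 differences of 0.38 (standard error 0.18), 0.42 (standard error 0.28) and 0.32 (standard error 0.23). ESAM, MCAM and CD93 had log2 differences of -0.44 (standard error 0.57), -0.38 (standard error 0.49) and -0.10 (standard error 0.13), and ERG, above background on 2 arrays of each group, of -0.23 (standard error 0.37). ICAM2 was higher on the Y-spermatozoa side of all 4 sows, with an unadjusted limma p of 0.0667 without the sow in the model. With the sow as a block the limma p was 0.0215 (adjusted p = 0.895), in a fit that called 5.09% of all probe sets. The scrapings thus held RNA of endothelial markers, although SELE and TIE1 were not above background on any array.

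The endothelial signal was not even over the arrays. Of the 16 endothelial markers outside the members that were above background on all arrays, 6 were highest on Y4 and 5 on Y2, and 6 were lowest on Y3, 3 on Y1 and 3 on X4. All 21 genes outside the members averaged -0.39, 0.33, -0.28 and 0.36 on Y1 to Y4 relative to their mean over all arrays, against -0.17, 0.20, 0.09 and -0.16 on X1 to X4 (log2). This average gives equal weight to genes near background, since 16 of the 21 were above it on all arrays and 2 on none. The brighter PECAM1 probe set and the brightest VWF probe set were high on the same Y2, Y4 and X2. The other probe sets of these genes shared this in part. The second VWF probe set was highest on Y2 and X2 (21 and 20.8). The dimmer PECAM1 probe set was highest on Y2 (49.9), followed by X2 (40.8) and closely by X4 (40.6). Y4 was not among the high arrays of either. There the dimmer PECAM1 probe set had a signal of 38.0, below its own mean. The second VWF probe set had 11.1 on Y4, its lowest, as on X4, below the background level of both arrays (12.485 and 11.925). In bulk samples such as these, fewer cells of a type and less RNA per cell cannot be told apart.

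Markers of the cells around vessels varied more. The 8 measured pericyte and smooth muscle genes, all above background on all arrays, averaged -0.998, 0.51, -0.73 and 0.62 on Y1 to Y4 relative to their mean, against -0.50, 0.67, 0.52 and -0.10 on X1 to X4 (log2). Their summed signal ran from 1755.4 to 7154.9 with Y-spermatozoa and from 2702.6 to 7984.1 with X-spermatozoa, and 0 of the 8 were called in limma at an unadjusted p under 0.05, with a median log2 difference of -0.28. ACTA2 and ACTG2, smooth muscle actins, differed by -0.62 (standard error 0.48) and by -0.82 (standard error 0.69) on the log2 scale. The muscle genes were low on Y1, Y3 and X1, arrays on which the PECAM1 and VWF probe sets with the higher signals were also below their own means, and high on X3, where both were below theirs; the part of vessel wall or muscle in the scrapings in these values was not tested.

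**Figure D4:**
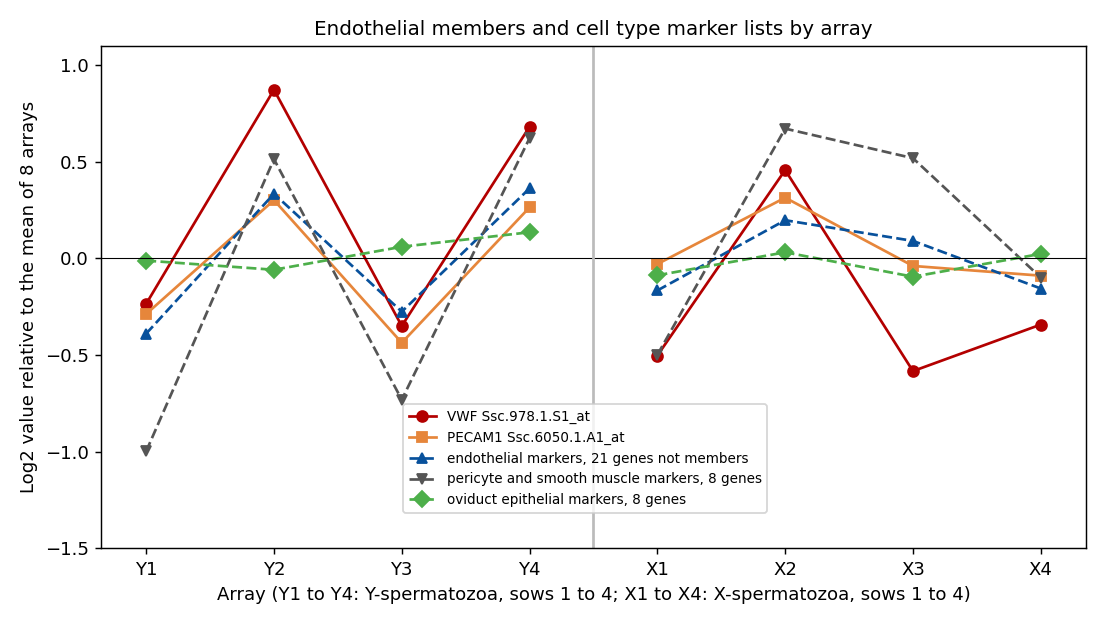
Log2 values relative to the mean of 8 arrays, by array, for the brightest VWF probe set, the brighter PECAM1 probe set and the average of 3 marker lists. Of the 21 genes in the endothelial list, 16 were above background on all 8 arrays. These VWF and PECAM1 probe sets were highest on Y2, Y4 and X2, the pericyte and smooth muscle list spanned from -0.998 on Y1 to 0.67 on X2, and the oviduct epithelial list stayed between -0.09 and 0.14.

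The average of the epithelial markers varied less from array to array, while single genes differed in spread. Relative to its own mean, KRT18 ran from -0.54 on X3 to 0.43 on Y4 and CLDN3 from -0.57 on X1 to 0.31 on X3. EPCAM stayed between -0.20 and 0.10 (log2). Limma's F-test of the sow terms called 2 of the 8 at an unadjusted p under 0.05, beside 14.2% of all probe sets tested. The 8 measured epithelial genes averaged between -0.06 and 0.14 on the Y-spermatozoa arrays and between -0.09 and 0.03 on the X-spermatozoa arrays relative to their mean (log2). Their summed deposited signal ran from 17009.6 to 17773.4 with Y-spermatozoa and from 14281.2 to 16963.7 with X-spermatozoa, which was not tested. OVGP1 had the highest signals in that sum, with deposited means of 8674 with Y-spermatozoa and 7159 with X-spermatozoa. Its deposited signal was higher with Y-spermatozoa in each sow, with ratios of 1.41, 1.01, 1.17 and 1.33 in sows 1 to 4. Quantile normalization removed most of this and gave both arrays of sow 3 the same OVGP1 value. After normalization the log2 difference of OVGP1 was 0.02 (standard error 0.12), and the average log2 difference of the 8 genes was 0.06. Limma called 0 of the 8 at an unadjusted p under 0.05. Of 8 measured leukocyte genes, which matter here because PECAM1 is also made by leukocytes, 1 was called higher, beside the 3.56% called over all probe sets. This was PTPRC (unadjusted limma p = 0.0171, exact two-sided permutation p = 0.0571), for which no fold is given, since it was above background on 2 Y-spermatozoa arrays and no X-spermatozoa array. The leukocyte sum ran from 98.2 to 155.8 with Y-spermatozoa and from 92.2 to 113.7 with X-spermatozoa. Of 5 measured platelet and red cell genes and 5 fibroblast and stroma genes, 0 were called in limma at an unadjusted p under 0.05. The red cell gene ALAS2 had a log2 difference of 0.44 (standard error 0.50, unadjusted limma p of 0.400). It was called only when the sow was a block (unadjusted limma p of 0.0115, adjusted p = 0.895), a fit that called 5.09% of all probe sets. The platelet gene PPBP was not above background on any array, and the fibroblast sums ran from 3172.0 to 6726.3 with Y-spermatozoa and from 4273.2 to 5315.5 with X-spermatozoa.

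Finally, the genes whose pattern over the 8 arrays was most like that of VEGFA and of PECAM1 were looked up among 5946 probe sets with 1 gene symbol and a mean above the median of the array. For the brighter VEGFA probe set these were PDLIM5 (Pearson r = 0.969 over the 8 arrays), the growth factor receptor gene IGF1R (r = 0.964) and SS18 (r = 0.959). IGF1R had signals of 37.9, 31.6, 53.1 and 34.6 on Y1 to Y4, against 51.6, 33.0, 55.4 and 39.1 on X1 to X4, highest in sow 3 as VEGFA was. For the brighter PECAM1 probe set they were RCAN1 (r = 0.983), an inhibitor of calcineurin, MRLC2 (r = 0.982), a myosin light chain, and YWHAQ (r = 0.954), a 14-3-3 protein. MRLC2 had signals of 657.8, 999.3, 633.1 and 946.0 on Y1 to Y4, against 749.3, 900.3, 744.8 and 744.4 on X1 to X4, so that Y2, Y4 and X2 were its 3 highest arrays as well. These r values are the top of many over only 8 arrays that share sows and scaling, and are given as a description.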

How the data were processed

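Scraped oviduct cells of 4 sows were measured on 8 arrays, grouped by sperm type and numbered by biological replicate from the labels. The sample titles name no sow, and equal replicate numbers were taken as the same sow. The deposited values are linear intensities, 1 per probe set, which per the labels the authors made with MAS5 version 5.1; each array appears scaled to a common level. The methods of the study describe RMA and limma; probe-level files for RMA were not used here. Signals were quantile normalized, values under 1 set to 1, and log2 values of 23999 probe sets (124 AFFX controls left out) compared with limma 3.58.1 in R 4.3.3, without a block, two-sided, with a threshold of 0.05 before and after Benjamini-Hochberg adjustment. The procedure was tested on simulated data. The number of arrays limits the precision. Figures were drawn with matplotlib 3.10.9 in Python 3.11.15.

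Replicate numbers were taken to pair the arrays, since the study inseminated both oviducts of each sow. Between arrays of equal number, deviations from the group means correlated by 0.187, 0.177, 0.144 and 0.132 in sows 1 to 4. Arrays of unequal number were not compared in this way. A model with the sow as a block served as an alternative, and its F-test of the sow terms gave the differences between sows.

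Symbols came from the platform annotation, in which 10099 probe sets have 1 symbol, 198 several and 13826 none. In lists, each gene was represented by its probe set with the highest mean. All vascular probe sets are given, and of each list the called genes and up to 4 with the smallest p; genes named for differences between sows, and CDH5, ESAM, MCAM, CD93, ERG, SELE and PPBP, were chosen after their values were seen. The members and lists were chosen with earlier results of these data known. Alternatives were a fixed or random block, other scalings, a pseudocount of 16, a floor at background, the 11999 brighter probe sets alone, AFFX controls kept, a variance trend, array weights, the hybridisation controls as a covariate, another background level, and leaving out each array or sow.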

Additional observations from a re-analysis of the deposited data

Results flagged for a closer look

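Among the 28 groups of 4 arrays examined for the vascular probe sets, 2 held an array whose gap to the nearest of the others was a large share of the group's range; chance flags about 1 in 20 groups. For the brighter PECAM1 probe set, X2 had a signal of 118.9, above the other X-spermatozoa arrays (89.7 to 95.1), and its gap was 0.851 of the range of normalized values. Among the Y-spermatozoa arrays, Y2 and Y4 had similarly high signals of 117.3 and 113.5. For the dimmer of the 2 HIF1A probe sets above background, X3 had a signal of 21.7, below the other X-spermatozoa arrays (34.7 to 37.0), with a gap of 0.880 of the range, and Y1 and Y2 had signals as low (21.5 and 22.5).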

How the results depend on the processing

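The number of vascular probe sets called between sperm types, 1 in the report, was 0 with signals floored at background, with the brighter probe sets alone and with the hybridisation controls as a covariate, and 0 to 2 when an array or a sow was left out. It stayed at 1 with the replicate block, where the brightest VWF probe set took the place of FLT1; the block changed no other call of a vascular probe set. The 0 adjusted calls stayed 0 throughout. Between sows, the brighter probe sets alone gave 2 calls, against 4, and 2 after adjustment, against 0, with fewer probe sets tested. The background level averaged 10.7; the median plus 2 SD of the reporter probe sets would put it at 1992. Over all probe sets, 855 were called, against 314 of the 11999 brighter ones and 1459 with a random block. Of 315 refits of 14 vascular probe sets, 256 kept their direction and side of the threshold, 10 (all FLT1) lost a call, 1 (VWF) gained one and 48 changed sign; the cause was not tested.

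With the hybridisation controls as a covariate, log2 differences changed sign to -0.0872 for the dimmer VEGFA probe set, 0.28 and 0.18 for the dimmer and the brighter PECAM1 probe set, -0.29 for ANGPT2, 0.0831 for the brightest HIF1A probe set, -0.13 for FLT1 and 0.67 for ENG. The dimmer PECAM1 probe set also turned, to 0.0024 with arrays centred on their median, 0.0032 with a pseudocount of 16 and 0.0120 with array weights. ANGPT2 turned to -0.0072 under the deposited scaling, the second VWF probe set to -0.0354 there and to -0.0029 with median centring, and ENG to 0.0835 with the floor. Leaving out an array or a sow gave -0.13 to 0.0571 and -0.22 to 0.0536 for the dimmer and the brighter PECAM1 probe set, -0.0450 to 0.20 for TEK, -0.17 to 0.23 for ANGPT2, -0.16 to 0.14 for EDN1, -0.35 to 0.17 for ENG and -0.16 to 0.19 for the second VWF probe set. Signals near background limit FLT1, KDR and ENG.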
